A study of Mus musculus with 3 samples.

Results

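The BCL2 family genes described here were 10 genes taken by symbol from the 28692 genes of the deposited tables. They were the survival genes Bcl2, Bcl2l1, Mcl1, Bcl2a1b and Bcl2a1d, the BH3-only genes Bcl2l11, Pmaip1 and Bbc3, and the effector genes Bax and Bak1. The gene set was read in 2 single-cell libraries of wild-type TEa cells. TEa cells are CD4+ T cells with a transgenic receptor for a peptide of the BALB/c I-E alpha alloantigen, and here were congenically marked, naive when transferred, and sorted again from the recipients. The recipients were C57BL/6 mice that carried BALB/c heart allografts for 7 days. One group came from the heart allograft and the other from the spleen, with 1 library each. The sources used here give neither the number of mice pooled per library nor their age. The third library of the study, Ldha-/- TEa cells from the spleen, was not used here, since the rows of its table were not paired with gene names.

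Proteins of the BCL2 family set the threshold of the mitochondrial route to apoptosis. Survival members (BCL2, BCL-XL from Bcl2l1, MCL1 and the A1 proteins from the Bcl2a1 genes) hold the effectors BAX and BAK in check. BH3-only proteins (BIM from Bcl2l11, NOXA from Pmaip1, PUMA from Bbc3) bind the survival proteins, and once BAX and BAK are free they permeabilise the outer mitochondrial membrane. In T cells, BCL2 sustains resting cells under interleukin-7, BCL-XL and A1 are induced by receptor and costimulatory signals, and BIM drives the loss of activated cells as a response contracts. A transcript level is not a protein level, and MCL1, NOXA and BIM proteins are also controlled by their turnover.

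After filtering, 3987 heart cells and 6517 spleen cells remained, with 42292356 and 55911588 UMIs (unique molecular identifiers, which count captured transcripts) and medians of 8237 and 7997 UMIs per cell. Only 6 cell barcodes were shared between the libraries. T cell markers summed to 11567 CPM (UMIs of a gene or list per 1000000 UMIs of the library) in heart and 11348 CPM in spleen. Markers of other cell types were low, and their part in the results was not tested. B cell markers summed to 44.1 CPM in heart and 177 CPM in spleen, nearly all of it Ighm, with Ms4a1 at 0 in heart. Monocyte or macrophage markers summed to 127 CPM in heart and 75.2 CPM in spleen, of which Cst3 made up 119 and 71.8 CPM, and 4 of the 9 markers in heart and 8 of the 9 in spleen were under 1 CPM. Erythroid markers summed to 0.071 CPM in heart and 20.4 CPM in spleen, and cardiomyocyte markers were at 0 in both. Cycling cells were 13.2% of heart cells and 2.81% of spleen cells. With 1 library per tissue no difference has a replicate check, no test was possible, and the tissue cannot be told apart from its library. The assay counts 1 end of each transcript, so levels of different genes need no scaling for length. All intervals below are exact 95% intervals that cover counting error only.

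The family differed in composition between the tissues. Heart cells held more transcripts of BIM, NOXA, BCL-XL and both A1 genes, and fewer of BCL2, while the sum of BAX and BAK transcripts was nearly equal. At a difference of at least 2-fold on the log2(CPM + 1) scale, 5 of the 10 members were higher in heart (Bcl2l1, Bcl2l11, Bcl2a1b, Bcl2a1d and Pmaip1) and 1, Bcl2, was lower. Among the 6950 genes that reached 10 CPM in heart or spleen, 9.11% were higher and 8.42% lower by that rule. All 10 members passed that floor, although Bcl2l1, Pmaip1 and Bbc3 passed it only by their level in heart. With a floor of 50 CPM instead, 6 members remained, of which 3 were higher and 0 lower, against 11.8% and 4.84% of the 2704 genes past it. Bcl2l11, 1 of the 3, passed the higher floor only by its level in heart, as did Bak1. The median log2 ratio of heart over spleen was 1.33 for the 10 members and -0.11 for all genes past the floor.

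**Figure D1:**
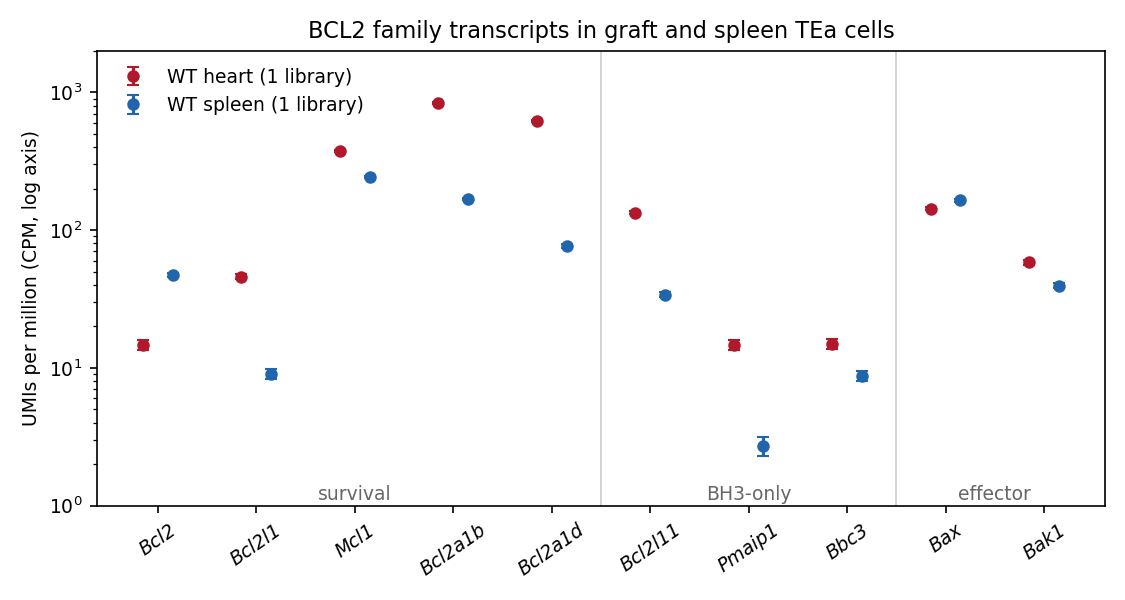
Level of each BCL2 family transcript in wild-type heart allograft TEa cells (red, left of each pair) and the spleen (blue), in CPM on a log axis, with exact 95% Poisson intervals for counting error and 1 library per tissue. Bcl2 is the member at least 2-fold lower in heart (14.7 against 47.4 CPM), while Bcl2a1d shows the widest gap upwards (619 against 76.7 CPM).

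Among the survival genes, Bcl2 and the others went opposite ways. Bcl2 (chromosome 1, 106538178 to 106714274, minus strand, GRCm38), which encodes the survival protein of resting T cells, reached 14.7 CPM (13.6 to 15.9) in heart cells and 47.4 CPM (45.6 to 49.2) in spleen cells. Its log2 ratio was -1.62, at percentile 2.07 of the genes past the floor. Bcl2l1 (chromosome 2, 152780668 to 152831728, minus strand), the BCL-XL gene, was at 46.0 CPM (44.0 to 48.1) in heart, against 9.05 CPM (8.28 to 9.87) in spleen, a log2 ratio of 2.23. Thus 3.12 Bcl2l1 UMIs were counted per Bcl2 UMI in heart cells and 0.191 in spleen cells. Mcl1 (chromosome 3, 95658788 to 95663176, plus strand), whose short-lived product is needed by T cells at most stages, differed less. It was at 377 CPM (371 to 383) in heart, against 242 CPM (238 to 246) in spleen, a ratio of 1.56 (1.52 to 1.59) that did not reach 2-fold.

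Together the A1 genes held most of the survival transcripts counted in heart. Bcl2a1b (chromosome 9, 89199209 to 89207827, plus strand) reached 837 CPM (828 to 846) in heart, against 167 CPM (164 to 171) in spleen, a log2 ratio of 2.31. Bcl2a1d (chromosome 9, 88723285 to 88731914, minus strand) was at 619 CPM (612 to 627) in heart, against 76.7 CPM (74.4 to 79.0) in spleen, a log2 ratio of 3.00. These are near-identical copies that lie on the same chromosome. Their longest GENCODE transcripts matched at 810 of 817 aligned bases, and within the last 300 bases, where this 3' assay reads, at 296 of 298. The sources used here do not say how reads that fit both copies were assigned, so the split between the copies is uncertain and their sum is the firmer value. The sum was 1456 CPM in heart, against 244 CPM in spleen, a ratio of 5.96 (5.85 to 6.08). The other copies, Bcl2a1a and Bcl2a1c, were at 0.449 and 0.118 CPM in heart and at 0.107 and 0.018 CPM in spleen. Bcl2a1a matched Bcl2a1d at 298 of the last 300 bases, so the assignment of its reads is uncertain as well. Myeloid cells also express A1 genes. The 87 heart barcodes removed for their myeloid markers had a median of 24522 UMIs, against 8237 in the kept heart cells. Whether some of them were doublets with T cells was not tested. These barcodes held 733 CPM of Bcl2a1b and 469 CPM of Bcl2a1d, both below the kept heart T cells. They held more Mcl1 (735 CPM, 702 to 770), Pmaip1 (36.3 CPM, 29.2 to 44.6), Bax (216 CPM) and Bak1 (88.3 CPM) than the kept heart T cells. Their Bcl2l11 was at 135 CPM and their Bcl2l1 at 54.0 CPM.

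The likeness of the copies extends to their promoters, which are shown for that reason from RefSeq on GRCm38.p6, each running 5' to 3' from 250 bases before to 50 bases after the transcript start. Capitals mark the 3 bases that differ over the 250 aligned bases. The alignment also holds 6 gap positions, and the windows are offset at their ends, with different annotated starts.
Bcl2a1b, chr9:89199023-89199322, plus strand: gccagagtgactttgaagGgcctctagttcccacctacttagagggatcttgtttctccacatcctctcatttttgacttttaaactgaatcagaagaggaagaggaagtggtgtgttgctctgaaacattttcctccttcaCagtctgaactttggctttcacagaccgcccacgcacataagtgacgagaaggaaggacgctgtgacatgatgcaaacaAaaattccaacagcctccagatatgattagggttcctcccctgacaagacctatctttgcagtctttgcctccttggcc
Bcl2a1d, chr9:88731801-88732100, minus strand: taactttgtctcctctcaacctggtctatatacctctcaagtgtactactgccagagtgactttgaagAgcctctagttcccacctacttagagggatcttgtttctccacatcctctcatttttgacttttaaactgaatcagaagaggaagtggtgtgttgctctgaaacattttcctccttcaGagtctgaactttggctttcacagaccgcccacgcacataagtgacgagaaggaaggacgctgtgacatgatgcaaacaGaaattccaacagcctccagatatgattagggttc

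The BH3-only genes were all higher in heart, by unequal amounts. Bcl2l11 (chromosome 2, 128126038 to 128162547, plus strand), the BIM gene, was at 134 CPM (131 to 138) in heart, against 34.0 CPM (32.5 to 35.5) in spleen, a ratio of 3.94 (3.74 to 4.16). Pmaip1, the NOXA gene, whose product binds MCL1 and A1, was at 14.6 CPM (13.5 to 15.8) in heart, against 2.70 CPM (2.29 to 3.17) in spleen. That is a ratio of 5.42 (4.53 to 6.52), on 619 and 151 UMIs. Bbc3 (chromosome 7, 16308393 to 16318205, plus strand), the PUMA gene and a known p53 target, was at 14.9 CPM (13.8 to 16.1) in heart, against 8.76 CPM (8.005 to 9.58) in spleen, a ratio of 1.70 (1.51 to 1.92).

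Forkhead factors of the FOXO group are known activators of Bcl2l11 and Bbc3, so promoter windows of these genes are shown with the forkhead core GTAAACA, found on either strand, in capitals. Windows from RefSeq on GRCm38.p6 were at hand for 9 of the 10 members, 14 windows in all. The core occurred in 2 of these 14 windows, the ones below, and in 3.65% of the 32851 windows of all genes. A match is a description of the letters and not a bound site. Bcl2l1 is shown as well, since it has a match to the kappaB consensus, which a window of Bbc3 also holds and which occurs in 8.46% of all windows. TTCNNNGAA, the STAT core, and TGACGTCA, the cyclic AMP response element, occurred in 8.30% and 1.79% of all windows and in 0 of the 14.
Bcl2l11, chr2:128125788-128126087, plus strand, forkhead core in capitals: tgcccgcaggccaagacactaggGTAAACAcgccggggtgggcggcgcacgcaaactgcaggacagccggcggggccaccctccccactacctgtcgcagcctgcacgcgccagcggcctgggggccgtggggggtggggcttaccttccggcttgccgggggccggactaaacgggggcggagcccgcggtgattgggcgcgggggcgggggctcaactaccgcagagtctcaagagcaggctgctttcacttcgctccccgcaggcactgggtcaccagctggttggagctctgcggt
Bbc3, chr7:16310011-16310310, plus strand, forkhead core in capitals: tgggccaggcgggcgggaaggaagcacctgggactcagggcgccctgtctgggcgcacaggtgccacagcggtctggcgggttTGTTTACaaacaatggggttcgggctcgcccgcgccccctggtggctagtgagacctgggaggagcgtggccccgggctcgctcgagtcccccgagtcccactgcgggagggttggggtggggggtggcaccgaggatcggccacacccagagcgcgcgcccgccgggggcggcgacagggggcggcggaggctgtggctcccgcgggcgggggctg
Bcl2l1, chr2:152830668-152830967, minus strand, kappaB match in capitals: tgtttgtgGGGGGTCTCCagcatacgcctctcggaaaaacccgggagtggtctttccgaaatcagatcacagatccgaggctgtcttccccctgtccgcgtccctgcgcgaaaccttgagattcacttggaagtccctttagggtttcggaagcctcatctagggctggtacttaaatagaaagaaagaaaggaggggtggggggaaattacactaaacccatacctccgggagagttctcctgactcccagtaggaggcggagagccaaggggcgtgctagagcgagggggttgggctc

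The effector genes differed by less than 2-fold, in opposite directions. Bax (chromosome 7, 45461697 to 45466898, minus strand) was at 143 CPM (139 to 146) in heart, against 164 CPM (161 to 168) in spleen, a ratio of 0.868 (0.840 to 0.897). Bak1 (chromosome 17, 27019810 to 27029009, minus strand) was at 58.5 CPM (56.3 to 60.9) in heart, against 39.4 CPM (37.8 to 41.1) in spleen, a ratio of 1.49 (1.40 to 1.58). Summed, they were at 201 CPM in heart, against 204 CPM in spleen.

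Summed by role, survival and BH3-only transcripts were higher in heart, while effector transcripts were nearly equal. Bcl2l11 made up most of the BH3-only sum in either tissue. The 3 BH3-only genes summed to 164 CPM in heart, against 45.4 CPM in spleen, a ratio of 3.60 (3.44 to 3.77). The 5 survival genes summed to 1894 CPM in heart, against 543 CPM in spleen, a ratio of 3.49 (3.44 to 3.54), of which Bcl2a1b and Bcl2a1d made up 1456 CPM in heart, against 244 CPM in spleen. Without those copies, Bcl2, Bcl2l1 and Mcl1 summed to 438 CPM in heart, against 299 CPM in spleen, a ratio of 1.47 (1.44 to 1.498). The balance of BIM with each survival partner therefore depended on the partner. Per Bcl2 UMI there were 9.09 Bcl2l11 UMIs (8.37 to 9.89) in heart cells and 0.717 (0.675 to 0.761) in spleen cells. Per Mcl1 UMI there were 0.355 Bcl2l11 UMIs in heart and 0.140 in spleen. Relative to Bcl2l1 the order turned, with 2.91 Bcl2l11 UMIs (2.76 to 3.07) per Bcl2l1 UMI in heart and 3.75 (3.40 to 4.15) in spleen. It also turned relative to Bcl2a1b, with 0.160 Bcl2l11 UMIs (0.156 to 0.165) per Bcl2a1b UMI in heart and 0.203 (0.193 to 0.213) in spleen. The split between the A1 copies is uncertain, so these values for a single copy are too. The sum of Bcl2a1b and Bcl2a1d had a heart over spleen ratio of 5.96, against 3.94 for Bcl2l11, so the order turned for the sum as well.

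**Figure D2:**
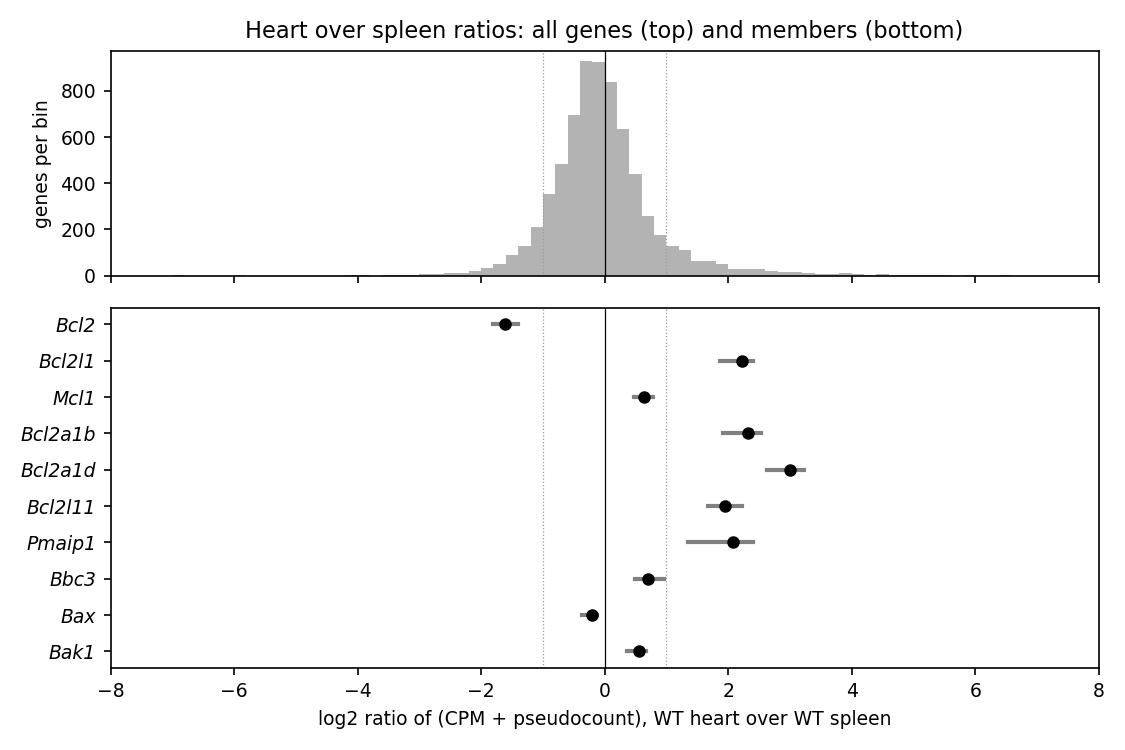
Top, number of genes by log2 ratio of heart over spleen for the 6950 genes that reach 10 CPM in heart or spleen. Bottom, the log2 ratio of each member as reported (points) and its range over the reported and 17 alternative settings (bars), with dotted lines at 2-fold; no member crosses 0 in any of them, and 5 members stay beyond 2-fold higher.

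The shares of cells in which each transcript was counted followed the levels. Each cell was thinned to 1000 UMIs so that depth was equal, and no kept cell fell below that number. Bcl2l11 was then counted in 13.4% of heart cells (12.4 to 14.5%) and 3.38% of spleen cells (2.95 to 3.84%), or 57.1% and 19.4% before thinning. Bcl2 was counted in 1.505% of heart cells (1.15 to 1.93%) and 4.57% of spleen cells (4.08 to 5.11%), or 12.3% and 26.1% before thinning. Mcl1 was counted in 32.8% of heart cells and 21.3% of spleen cells, and in 94.8% and 83.8% before thinning. At these low shares a cell without a UMI is not a cell without the transcript.

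No cell type of these libraries is known to lack the family, so free RNA was read from barcodes of 1 to 100 UMIs, which held 3.45% of all UMIs of the heart library and 4.69% of those of the spleen library. The free RNA of each library differed between the tissues in the same direction as its cells for all 10 members, but not always at the same levels. Bcl2l11 was at 153 CPM (134 to 173) in heart free RNA and 37.9 CPM (31.1 to 45.8) in spleen free RNA. Bcl2 was at 26.1 CPM (18.8 to 35.3) in heart free RNA and 37.6 CPM (30.8 to 45.4) in spleen free RNA, a smaller gap than in cells, which held 14.7 CPM in heart. Mcl1 was at 476 CPM (443 to 511) in heart free RNA, above the 377 CPM of heart cells, and Bcl2a1d at 507 CPM (473 to 543), below their 619 CPM. How much of the count of each cell came from free RNA was not tested.

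**Figure D3:**
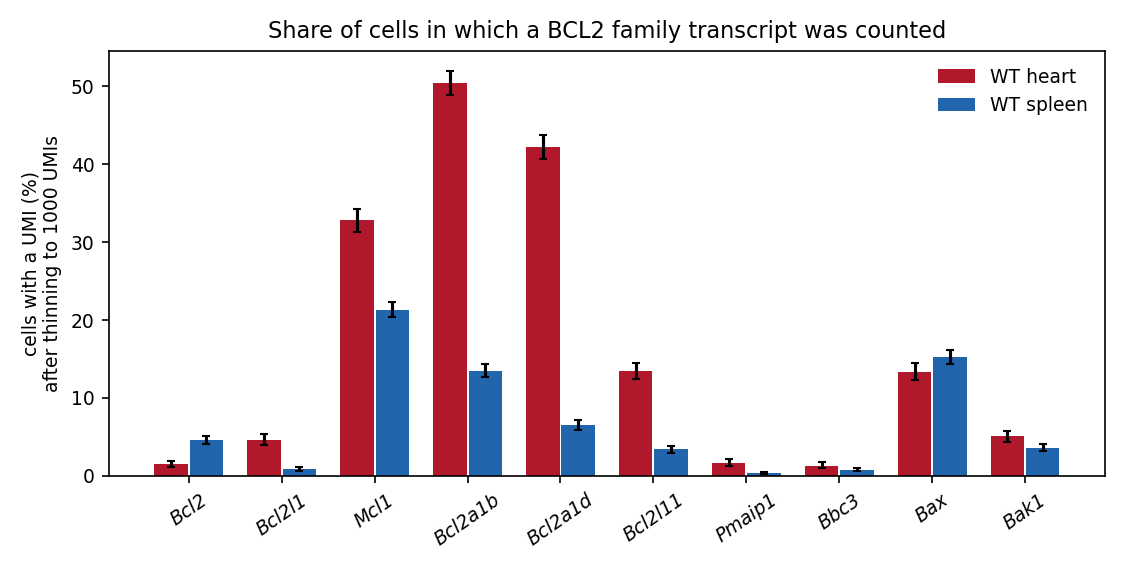
Percentage of heart cells (red) and spleen cells (blue) with at least 1 UMI of each member after thinning every cell to 1000 UMIs; bars start at 0 and error bars are exact 95% binomial intervals for counting error. Bcl2a1b was counted in 50.4% of heart cells and 13.5% of spleen cells, and Bcl2 is the survival gene counted in more spleen cells (4.57%) than heart cells (1.505%).

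The level of each member was then read across cell clusters. Clustering, from which the BCL2 family genes were left out, gave 15 clusters, and 3 clusters with markers of other cell types (myeloid, erythroid and NK) were removed. Groups of at least 50 cells of 1 library and 1 cluster numbered 3 in heart and 8 in spleen. In 10 of the 11 clusters involved, over 90% of cells belonged to a single library, so clusters and libraries are nearly the same division. The heart groups were cluster 2, led by Cxcr6, Crem and Itgae, cluster 4, led by Hspa1a, Hspa1b and Ifng, and the cycling-like cluster 6. The spleen groups were the naive or stem-like cluster 1, cluster 3, led by Egr2 and Id3, the Th1-like cluster 5, with higher Ccl5, Nkg7 and Cxcr3, cluster 7, led by H2-Q2, Tox2 and Cxcr5, cluster 8, led by sterol synthesis genes, the interferon-response-like cluster 9, and the cycling-like clusters 10 and 12.

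For 5 members every heart group lay above every spleen group (Bcl2l1, Bcl2l11, Bcl2a1b, Bcl2a1d and Pmaip1), and for 1, Bcl2, every heart group lay below. Over all genes past the floor, 9.5% were separated upwards and 15.5% downwards in this way. The groups overlapped for Mcl1, Bbc3, Bax and Bak1. By these CPM values, the difference between tissues in the 6 separated members was thus present in each group and not in a single cluster. Bcl2 alone, 1 of 10 members, was separated downwards, which did not exceed the 15.5% of all genes. Since clusters and libraries are nearly the same division, the separation is not a check apart from the library difference. For Pmaip1 the separation did not exceed counting error throughout. Heart cluster 6 (10.7 CPM, 9.08 to 12.6) overlapped spleen cluster 12 (4.88 CPM, 1.58 to 11.4, on 5 UMIs).

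Within each tissue the order of the groups differed by gene. Bcl2 was highest in the Th1-like spleen cluster 5, at 91.2 CPM (84.2 to 98.6), and next in cluster 3 at 48.4 CPM (44.8 to 52.3). The naive or stem-like cluster 1 held 40.3 CPM (37.8 to 42.9) of it, an interval that overlapped those of both neighbours in the order, clusters 9 and 8. In heart it was at 19.8 CPM (17.1 to 22.8) in cluster 4, 14.4 CPM (12.7 to 16.3) in cluster 2 and 11.7 CPM (9.95 to 13.6) in cluster 6, of which the last 2 overlapped. Cluster 5 was also the spleen group with the most Bcl2l1, at 17.7 CPM (14.7 to 21.1), the most Mcl1, at 289 CPM (276 to 302), and the most Pmaip1, at 6.76 CPM (4.97 to 8.99). For Bcl2l1 and Pmaip1 the interval overlapped that of the next group, cluster 12, and for Mcl1 that of the next group in either tissue, heart cluster 6.

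Bcl2l11 had its own order, led by the graft. It was at 179 CPM (173 to 186) in heart cluster 2, 139 CPM (131 to 146) in heart cluster 4 and 73.1 CPM (68.6 to 77.8) in the cycling-like heart cluster 6. These intervals did not overlap. In spleen it was highest in cluster 3, at 53.7 CPM (49.9 to 57.8), the group led by the receptor-induced factor Egr2, and lowest in cluster 8, at 15.2 CPM (10.3 to 21.5). Bcl2a1b and Bcl2a1d were also highest in heart cluster 2, at 1105 and 847 CPM, and, among spleen groups, in cluster 3, at 303 and 126 CPM. For Bcl2a1d the interval of spleen cluster 3 (120 to 132) overlapped that of spleen cluster 7, at 116 CPM (105 to 129). Per Bcl2 UMI, Bcl2l11 ranged from 6.25 (5.29 to 7.43) in cluster 6 to 12.4 (10.97 to 14.1) in cluster 2 within heart. Within spleen it ranged from 0.403 (0.256 to 0.618) in cluster 8 to 1.11 (0.996 to 1.23) in cluster 3.

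Pmaip1, Bbc3 and Mcl1 peaked together in heart cluster 4, which heat shock and immediate early genes led. Pmaip1 was at 21.9 CPM (19.1 to 25.1) there and at 13.9 CPM (12.2 to 15.7) in cluster 2. Bbc3 was at 22.0 CPM (19.2 to 25.2) in cluster 4 and at 15.1 CPM (13.4 to 17.0) in cluster 2. Mcl1 was at 485 CPM (472 to 499) in cluster 4 and at 393 CPM (384 to 402) in cluster 2. The intervals of clusters 4 and 2 did not overlap for any of these genes. Among spleen groups Bbc3 reached 14.1 CPM (10.4 to 18.7) in cluster 7, and was at 3.20 CPM (2.32 to 4.31) in cluster 3, where Bcl2l11 was highest. Cluster 4 was also left out, which was decided with the data in view. The log2 ratios of heart over spleen were then 1.86 for Pmaip1, 0.49 for Bbc3 and 0.51 for Mcl1. With all cells they were 2.08 for Pmaip1, 0.70 for Bbc3 and 0.64 for Mcl1.

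Bax and Bak1 varied less. Bax ran from 116 CPM (109 to 122) in heart cluster 4 to 204 CPM (177 to 234) in the cycling-like spleen cluster 12, and all neighbours in its order overlapped but heart clusters 2 and 4. Bak1 was highest in the cycling-like groups, at 73.5 CPM (69.1 to 78.2) in heart cluster 6, 71.4 CPM (60.4 to 83.9) in spleen cluster 10 and 67.3 CPM (52.4 to 85.2) in spleen cluster 12. It was lowest in spleen cluster 1, at 32.3 CPM (30.1 to 34.6), which overlapped cluster 3.

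**Figure D4:**
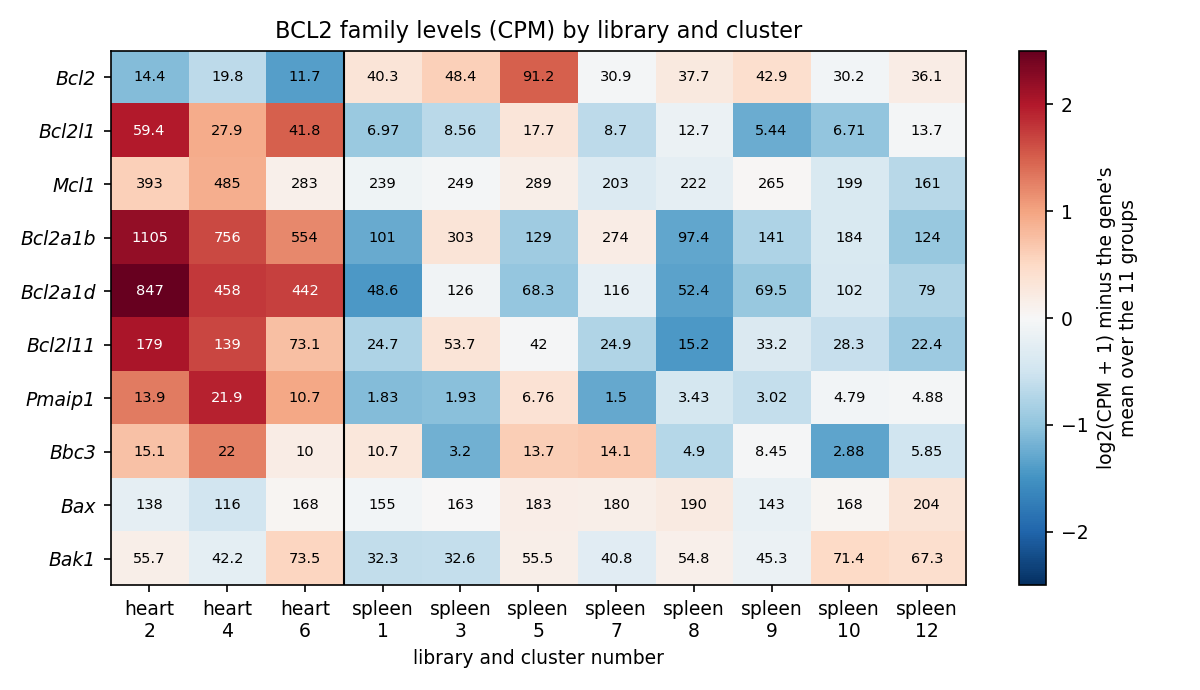
Level of each member in each group of at least 50 cells of 1 library and 1 cluster, with heart groups left of the line and spleen groups right of it; numbers are CPM and colours show log2(CPM + 1) minus the mean of that gene over the 11 groups. Bcl2 is blue in all 3 heart groups and darkest red in spleen cluster 5 (91.2 CPM), and Bcl2a1d reaches 847 CPM in heart cluster 2.

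Genes whose levels followed a member most closely over these 11 groups were taken from the 2703 other genes that reached 50 CPM in heart or spleen. The correlations are descriptions over groups that share 2 libraries, and the tissue difference alone aligns many genes. Nearest to Bcl2 were Traf3ip3 (Pearson's r 0.91), Snx4 (0.90) and Ms4a6b (0.90). Nearest to Bcl2l1 were Traf4 (0.95), Hilpda (0.95) and Tnfrsf18 (0.95). Bcl2l11 was followed by Gch1 (0.96), Sla (0.95) and Srgn (0.95), and Mcl1 by Btg2 (0.97), Pnrc1 (0.96) and Rsbn1l (0.95).

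Cycling cells were compared with the other cells of the same library. Cells with 2 or more thinned UMIs among 10 proliferation markers were taken as cycling, which gave 527 heart cells (median 18837 UMIs) and 183 spleen cells (median 14414 UMIs). In heart, 8 of the 10 members were at a lower CPM in cycling cells, and Bax and Bak1 were higher. Of genes with at least 10 CPM in either class of heart cells, 47.4% were lower in cycling cells. Bcl2l11 was at 77.2 CPM (72.1 to 82.6) in cycling heart cells and 154 CPM in the other heart cells, a ratio of 0.502 (0.466 to 0.540). Bcl2a1b had a ratio of 0.543 (0.528 to 0.559) and Mcl1 of 0.708 (0.680 to 0.736). In spleen, 5 of the 10 members were lower in cycling cells, against 43.7% of genes past the same floor. Pmaip1 and Bbc3 did not reach that floor in spleen. Of the lower members, Bcl2l11 had a ratio of 0.826 (0.656 to 1.03) and Bcl2a1b of 0.949 (0.864 to 1.04), and both intervals held 1. Bak1 was higher in cycling cells of both libraries, with ratios of 1.28 (1.17 to 1.39) in heart and 1.90 (1.64 to 2.19) in spleen. Cycling cells were deeper than the others, so that their depth moves with these values, and its part was not tested. Without cycling cells the log2 ratio of heart over spleen was 2.13 for Bcl2l11 and -1.57 for Bcl2.

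**Figure D5:**
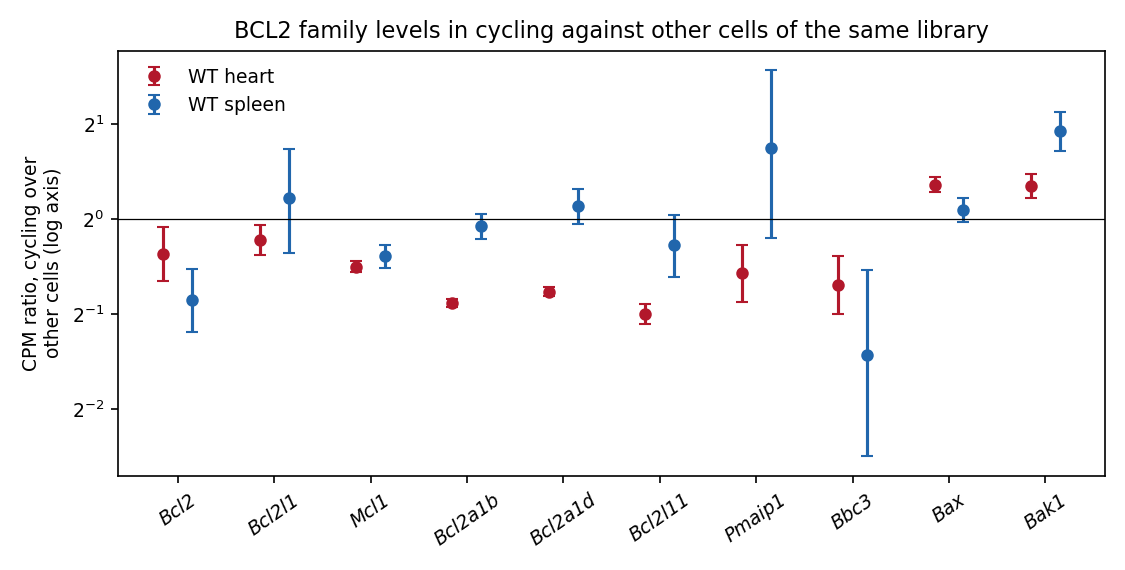
CPM of each member in cycling cells over that in the other cells of the same library (log axis, 1 at the line), for heart (red, left) and spleen (blue), with exact 95% intervals for counting error. In heart the BH3-only and survival genes lie below 1 (Bcl2l11 at 0.502) and Bax and Bak1 above it (1.29 and 1.28).

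Cells were also split by a thinned UMI of Tcf7, a factor of stem-like T cells, of the granzyme gene Gzmb, or of the cytokine gene Ifng, and in heart also of the heat shock genes Hspa1a or Hspa1b. In heart, 322 cells with Tcf7 held 27.5 CPM of Bcl2l1, against 47.5 CPM in heart cells without it, a ratio of 0.579 (0.463 to 0.716). Their Bcl2 level did not differ beyond counting error (14.5 CPM, against 14.7 CPM), and Bbc3 was higher, with a ratio of 1.49 (1.14 to 1.91). In spleen, 2286 cells with Tcf7 held 43.1 CPM of Bcl2, against 49.6 CPM in spleen cells without it. Spleen cells with Gzmb, 161 in number, held more Bak1 than other spleen cells, at 79.1 CPM (66.2 to 93.8), against 38.2 CPM. Bak1 was also higher in heart cells with Gzmb, with a ratio of 1.39 (1.26 to 1.53). Gzmb was among the markers 2-fold higher in the cycling-like clusters 10 and 12, and the part of cycling was not tested. The spleen cells with Gzmb also held more Bcl2l1, Bcl2 and Bax. The ratios were 2.03 (1.36 to 2.94), 1.36 (1.11 to 1.65) and 1.18 (1.05 to 1.32). Their Pmaip1 rested on 15 UMIs, 8.92 CPM (4.99 to 14.7), against 2.51 CPM in other spleen cells. Their Bbc3 rested on 3 UMIs, 1.78 CPM (0.368 to 5.22), against 8.98 CPM in other spleen cells. Heart cells with Ifng, 269 in number, held 21.8 CPM of Pmaip1 on 59 UMIs, against 14.1 CPM in other heart cells. That is a ratio of 1.54 (1.16 to 2.02). Ifng led heart cluster 4 together with Hspa1a and Hspa1b. The Pmaip1 values of that cluster and of these marker classes are therefore not separate observations, and their overlap was not tested.

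Heat shock transcripts, which are induced by cell stress and also by tissue dissociation, moved with the tissue. Before thinning, 467 heart cells and 18 spleen cells held a UMI of Hspa1a or Hspa1b, and the part of this in the tissue differences was not tested. After thinning, 154 heart cells held one. Pmaip1 was at 31.9 CPM (23.4 to 42.6) in them, against 14.0 CPM in other heart cells, a ratio of 2.28 (1.65 to 3.08). Mcl1 was also higher in them, with a ratio of 1.24 (1.15 to 1.34), and the A1 genes were lower, with ratios of 0.684 (0.638 to 0.732) for Bcl2a1b and 0.585 (0.536 to 0.637) for Bcl2a1d.

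Within single cells, 45 pairs of members were read in each library, and for 3 of the 45 in either library the counting interval left out the number of joint cells that the separate shares give. Among 45 intervals at 95% some do so by counting alone. Over thinned cells, Bcl2a1b and Bcl2a1d were found in the same cell 1.21 times (1.14 to 1.29) as often as that in heart and 1.90 times (1.56 to 2.29) in spleen. Reads of these near-identical copies may be assigned to either copy, and all pairs were read over clusters that differ in level. The part of either in the pairings was not tested. The other two pairs in heart were Bbc3 and Bax, at 2.01 times (1.101 to 3.38) on 14 cells, and Bcl2l1 and Bcl2a1b, at 1.22 times (1.004 to 1.46) on 113 cells. In spleen they were Bcl2 and Bcl2l1, at 2.78 times (1.12 to 5.73) on 7 cells, and Bcl2 and Bcl2l11, at 1.79 times (1.06 to 2.83) on 18 cells. Among pairs whose interval held 1, BIM and MCL1 transcripts were found together 0.969 times (0.828 to 1.13) as often in heart. At these shares weak pairings would not be detectable.

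Other genes of the cell death pathway were read from 7 lists. Of 16 other BCL2 family genes, 4 had at least 10 CPM in either library. By the 2-fold rule 0 of these were lower in heart, against 8.42% of all genes past that floor. Against 9.11% of all genes past it, 1 of the 4 was at least 2-fold higher in heart. That was Bnip3, a mitophagy receptor and hypoxia target (25.8 CPM in heart, 2.09 CPM in spleen), while Bnip3l (181 and 138 CPM), Bad (31.3 and 24.8 CPM) and Bcl2l12 (10.7 and 17.7 CPM) were within 2-fold. Bid, Bik, Bmf, Hrk, Bok and Bcl2l2 were among those under 10 CPM in both. Among apoptosome, caspase and inhibitor genes, the apoptosome scaffold Apaf1 (18.6 CPM in heart, 8.71 CPM in spleen) and the inhibitor of apoptosis gene Birc2 (112 and 43.1 CPM) were at least 2-fold higher. The nuclease gene Endog was at 13.2 CPM in heart, against 25.3 CPM in spleen.

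Among 10 death receptor genes past the floor, 2 were at least 2-fold higher and 0 lower, against 9.11% and 8.42% of all genes past the floor. Tnfrsf1b, which encodes the second TNF receptor, was at 110 CPM in heart, against 11.8 CPM in spleen, and Fasl, the Fas ligand, at 47.2 and 11.3 CPM. Tradd was at 27.5 and 53.5 CPM and Tnfsf10, the TRAIL gene, at 16.6 and 7.98 CPM, which is a plain ratio of 2.08 (1.85 to 2.35) but a log2 ratio of 0.97 with the pseudocount. Fas itself was nearly equal, at 25.1 CPM in heart, against 26.0 CPM in spleen. For p53 and its targets, 1 of 11 genes past the floor was at least 2-fold higher and 0 lower. The shares of all genes past the floor were 9.11% and 8.42%, so this count did not stand out. The higher gene was the cell cycle inhibitor Cdkn1a (67.7 and 1.16 CPM). Trp53 was at 112 CPM in heart, against 91.8 CPM in spleen, and Rps27l (285 and 192 CPM) and Gadd45a (10.1 and 6.58 CPM) were within 2-fold. Sesn1 was at 6.38 CPM in heart, against 13.7 CPM in spleen, a plain ratio of 0.467 (0.405 to 0.537) that passes 2-fold, but a log2 ratio of -0.99 with the pseudocount, which does not.

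Survival cytokine receptors and their signal carriers gave 4 genes at least 2-fold higher and 1 lower among 14, with a median log2 ratio of 0.60, against 9.11% higher, 8.42% lower and a median of -0.11 over all genes past the floor. Higher were Il2ra, the high-affinity chain of the interleukin-2 receptor (29.2 CPM in heart, 1.13 CPM in spleen), the kinase gene Pim1 (358 and 65.1 CPM), Stat5a (66.6 and 16.4 CPM) and Stat3 (172 and 73.3 CPM). Il6ra was lower (12.7 and 77.6 CPM). Il7r, the receptor whose signal sustains Bcl2, was at 174 CPM in heart, against 148 CPM in spleen, a ratio of 1.18 (1.14 to 1.21). Its bearing on the level of Bcl2 was not tested. Of 8 factors upstream of BH3-only genes, 4 were at least 2-fold higher, Jun (26.9 and 3.40 CPM), Hif1a (384 and 89.98 CPM), Atf4 (136 and 44.2 CPM) and E2f1 (11.3 and 5.10 CPM), and 1, Myc, was lower (3.26 and 14.2 CPM). The FOXO factors were within 2-fold. Foxo1 was at 59.2 CPM in heart, against 71.3 CPM in spleen, a ratio of 0.831 (0.790 to 0.874), and Foxo3 at 15.6 and 15.1 CPM. None of the 8 genes past the floor for turnover of MCL1 and BIM proteins reached 2-fold. The farthest were Fbxw7 (15.2 and 30.2 CPM), Dynll2 (67.3 and 39.8 CPM), Mapk3 (30.8 and 18.3 CPM) and Huwe1 (51.9 and 65.2 CPM).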

How the data were processed

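The assay was 3' single-cell RNA sequencing on droplets, according to the labels' protocols. The authors deposited raw counts of UMIs for each gene in each barcode, in matrices that name Cell Ranger 3.0.2 per the file headers. Seurat 4.0.0, Cell Ranger 7.0.0 and the build mm10 stand in the submitters' processing notes. The sources used here do not say how intronic reads were treated.

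Of the listed barcodes, those with 1000 or more UMIs, 500 or more genes and no more than 10% mitochondrial UMIs were retained (4074 heart, 6583 spleen). They were clustered jointly (2000 variable genes after log scaling of each cell to 10000, 30 principal components, 15 neighbours, Leiden resolution 0.6, scanpy 1.11.5, leidenalg 0.10.2), without BCL2 family, receptor, mitochondrial, ribosomal protein and sex-linked genes. Clusters with at least 3 markers of another cell type 2-fold higher were removed, which took 87 heart and 66 spleen barcodes. No doublet caller was applied, so doublets can remain.

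Counts were summed per library and scaled to CPM. Log2 ratios use a pseudocount of 1 CPM, which understates the difference for low genes. A count of 0 allows up to 3 counts, or 0.071 CPM in heart and 0.054 CPM in spleen. Poisson and binomial (Clopper-Pearson) intervals were computed with scipy 1.17.1. With 1 library per group no test was made, and cells were not treated as replicates. The functions were tested on simulated data. Positions of genes come from the GENCODE M21 annotation of GRCm38 (mm10). The members, lists and tests were chosen with earlier results of these data known. All members are named, with, from each other list, up to 4 genes of largest absolute log2 ratio past 10 CPM. Fas, Trp53, Il7r, Foxo1, Foxo3, Stat3, E2f1 and the genes listed as under the floor are named beyond that rule, as were the values picked from clusters and marker classes, after their values were seen. Alternatives covered totals, thinning, weighting of cells, pseudocount, floors, cell filters and cell subsets. Some members of the marker and pathway lists are not reported here, and no count is given for the list of apoptosome and caspase genes.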

Additional observations from a re-analysis of the deposited data

Results flagged for a closer look

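Bcl2l11 differed between cells with and without a thinned UMI of Ifng in opposite directions in the 2 tissues. In heart, cells with Ifng held 116 CPM (104 to 130) of it and other cells 135 CPM, a ratio of 0.860 (0.765 to 0.964). In spleen, the 79 cells with Ifng held 56.4 CPM (40.8 to 75.9) and other cells 33.7 CPM, a ratio of 1.68 (1.21 to 2.27). The difference between the tissues was not tested, since there is 1 library in each, and the intervals cover counting error only.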

How the results depend on the processing

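Over 17 alternatives, 3 of them chosen after seeing the data, no member changed the side of equal on which it lay. The counts of 5 members at least 2-fold higher and 1 lower held in 16 of the 17. With a filter of 50 CPM they were 3 and 0, because Bcl2, Bcl2l1, Pmaip1 and Bbc3 then fell under the filter. The median log2 ratio of the members was 1.18 when Malat1, mitochondrial and ribosomal protein UMIs were dropped from the totals, which also moved the median of all genes from -0.11 to -0.32. It was 1.52 with the mean of per-cell CPM, 0.99 with a pseudocount of 5 CPM, 1.47 without cycling cells and, as a setting chosen after seeing the data, 1.55 without the cycling clusters 6, 10 and 12. The log2 ratio of Bcl2 ranged from -1.81 to -1.41, of Bcl2l11 from 1.67 to 2.23, of Bcl2l1 from 1.86 to 2.40, of Pmaip1 from 1.35 to 2.40 and of Bax from -0.37 to -0.12. The lowest Bcl2l11 value came from leaving out cluster 1, likewise decided with the data in view, and the cause was not tested. No paired analysis was possible because each tissue had 1 library. The count of Pmaip1 in spleen (151 UMIs) sets the width of its ratio.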
